A study of Mus musculus with 2 samples.

Results

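The small leucine-rich proteoglycans (SLRPs) are secreted proteins built on leucine-rich repeats that bind collagen in the pericellular matrix. The 10 genes Dcn, Bgn, Aspn, Fmod, Lum, Prelp, Omd, Kera, Ogn and Podn were taken by name, and every probe set annotated to exactly 1 of them was used. This gave 21 probe sets for 10 of the 18193 genes named on the array. The genes were measured in fibroblasts from mouse embryos (MEFs), p27delta51 or wild type and serum-starved, with 1 array per genotype. The p27 protein, product of Cdkn1b, holds back the kinases that drive the cell cycle. The p27delta51 allele is known to lack an amino-terminal stretch of that protein. The cultures of each genotype were grown in medium with 10% fetal bovine serum and then held without serum for 72 h. The sources used here do not say how many embryos or cultures lay behind an array.

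SLRPs regulate how collagen fibrils form, how thick they grow and how they are spaced, and several also bind growth factors such as transforming growth factor beta (TGF-beta). Many carry sulfated sugar chains, chondroitin or dermatan sulfate in the decorin and biglycan class and keratan sulfate in the fibromodulin and lumican class. In fibroblasts of skin, tendon and other connective tissues they are among the main non-collagen matrix products. Most of their genes sit in small chromosomal clusters that arose by duplication.

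Values are signal intensities on a linear scale, and differences are log2 of p27delta51 over wild type, positive where p27delta51 was higher. With 1 array per genotype there was no test, no SD and no replicate check, so every value describes these 2 arrays, and genotype, culture and array cannot be told apart. A signal counted as above background where it exceeded the brightest of 27 bacterial control probe sets, 14.8 for p27delta51, against 11.8 for wild type. A gene was kept when the mean signal of its brightest probe set was at least 22.2, the median over all probe sets. Over the 11159 kept genes the median log2 difference was 0.079. The middle of that distribution, from quartile to quartile, ran from -0.33 to 0.51. Cdkn1b itself was read by a probe set with signals of 1.6 in p27delta51, against 62.0 in wild type, and by another with 1016 in p27delta51, against 542 in wild type, and it was not established which of these lies outside the deletion. The arrays also differed in sex-linked transcripts, with Xist at 876 in p27delta51, against 25.8 in wild type. The Y-linked Eif2s3y gave 6.9 in p27delta51, against 425 in wild type. The sex of the embryos therefore cannot be told apart from the genotype.

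Fibroblast identity was checked on 10 marker genes, of which 9 were above the floor on each array. Their summed signal was 49517 in p27delta51, against 40437 in wild type. Col1a1, a chain of type I collagen, gave 7275 in p27delta51, against 7569 in wild type. Pdgfra and Postn were 3.84-fold and 2.10-fold higher in p27delta51. Thy1, a fibroblast surface glycoprotein, gave 18.6 in p27delta51, against 279 in wild type, Pdgfrb was 1.80-fold lower, and Fap was at or below the floor on each array.

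The SLRP genes split between the arrays. Decorin was much lower in p27delta51 and asporin much higher, while biglycan and osteoglycin were bright on each array. Of the 10 genes, 9 were kept, and Kera was below the brightness limit. Of the 9, only Aspn was higher by 2-fold or more in p27delta51, where 10.8% of all kept genes were. Dcn and Lum were lower by 2-fold or more, where 8.77% of all kept genes were, and the other 6 lay between. The count of higher genes is thus near the background share, and the differences of Aspn and Dcn lie far outside the quartile range of all kept genes. In bulk cultures, fewer cells that express a gene and less RNA per cell cannot be told apart. The median log2 difference of the 9 genes was 0.59, or 0.30 with the log2 ratios of the authors' deposited table. By sign, 6 were positive and 3 negative, where 55.6% and 44.3% of all kept genes were. The positive values include those of Bgn and Podn, for which the direction is not settled. A kept gene that is bright on 1 array alone had to differ, so these counts are a description of the 9 genes only.

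**Figure D1:**
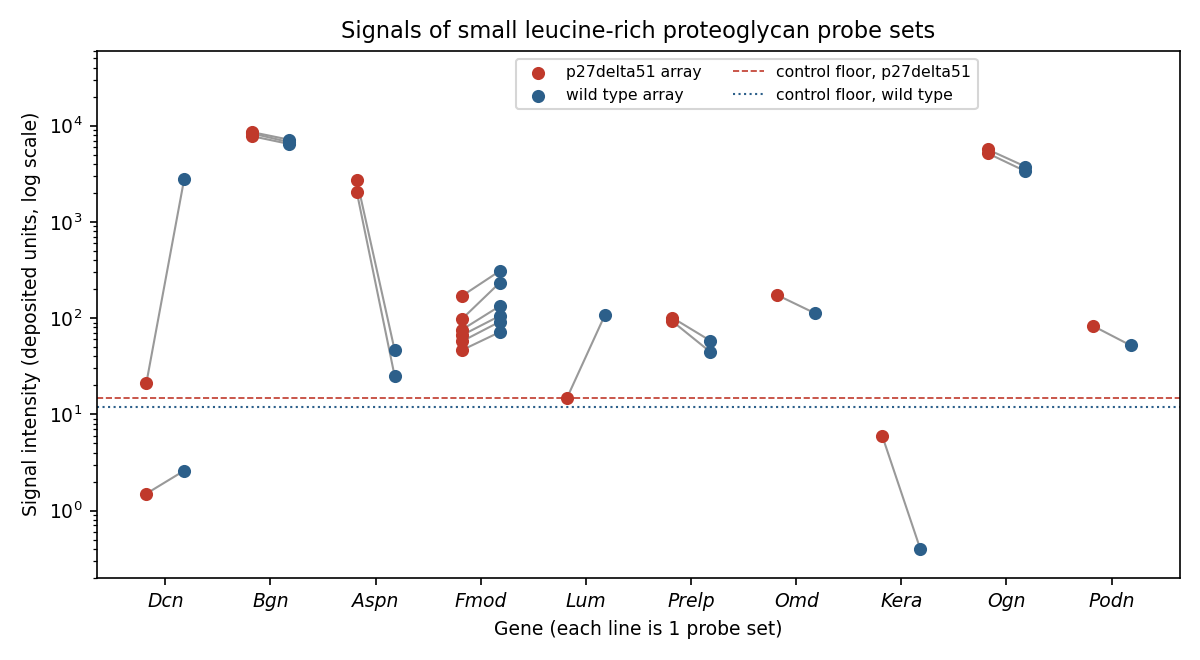
Signal intensity (log axis) of each of the 21 SLRP probe sets on the p27delta51 array (red, left of each pair) and the wild type array (blue, right), joined by a line per probe set, with the control floor of each array dashed and dotted. Aspn stands high on the p27delta51 array and the bright Dcn probe set on the wild type array. Lum is dim in wild type, at 107, and at the floor in p27delta51. Kera and the other Dcn probe set lie under the floors on each.

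The decorin class held the widest differences of the family, in opposite directions. Decorin (Dcn) coats collagen fibrils, binds TGF-beta and limits lateral fibril fusion, and mice without it have fragile skin. Its bright probe set read 21.3 in p27delta51, against 2817 in wild type, 132-fold lower (log2 difference -7.05). The p27delta51 signal lies just above the floor of 14.8, so the fold is approximate. A further Dcn probe set gave 1.5 in p27delta51, against 2.6 in wild type, at or below the floor on each array, and so measured no difference. Averaging it with the bright one brings the log2 difference of Dcn to -3.92, still more than 2-fold lower. Among the 10774 kept genes above the floor on each array, Dcn had the 3rd most negative difference. Kept genes at or below the floor on either array were not ranked, and among those Cnmd had a more negative difference (-11.7).

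Asporin (Aspn), a close relative of decorin with a run of aspartates near its amino terminus, binds collagen and TGF-beta and is known for its place in cartilage, tendon and periodontal ligament. Its brighter probe set gave 2754 in p27delta51, against 47.0 in wild type, 58.6-fold higher. Its other probe set gave 2063 in p27delta51, against 25.3 in wild type, 81.5-fold higher. Each wild type signal was above the floor. The authors' deposited table gave log2 ratios of 5.8 and 5.7 for these probe sets, each with an increase call. By rank, Aspn had the 2nd most positive difference of the 10774 genes above the floor on each array. Among unranked kept genes, with wild type signals under the floor, Dmp1 (11.0) and Bmp2 (6.33) had more positive differences.

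Biglycan (Bgn), the X-linked partner of decorin in skin and bone, was bright and close to equal. Its 3 probe sets gave 8581, 8336 and 7791 in p27delta51, against 7134, 6718 and 6440 in wild type. The differences were between 1.20-fold and 1.24-fold higher in p27delta51, and with quantile normalization of the arrays the log2 difference of its brightest probe set turned to -0.011, so no direction is drawn. The 355 kept genes of the X chromosome had a median log2 difference of 0.19. Within this class Dcn was low in p27delta51, Aspn was low in wild type, and Bgn was bright on each array.

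**Figure D2:**
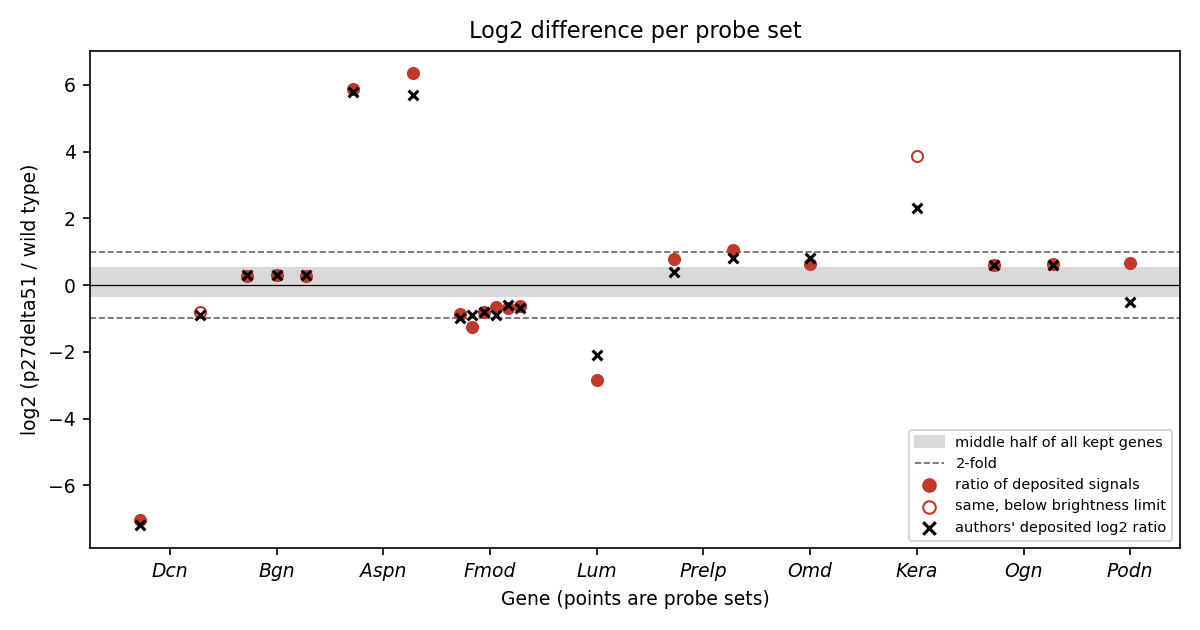
Log2 of p27delta51 over wild type for each SLRP probe set, from the deposited signals (red; hollow where below the brightness limit) and from the authors' deposited table (crosses), with the quartile range of all kept genes in grey and 2-fold dashed. By the deposited signals, Lum, the bright Dcn probe set and 1 of the 6 Fmod probe sets lie under the lower line. The Dcn probe set at the floor does not. Above the upper line lie both Aspn probe sets (above 5), the dimmer Prelp probe set (1.05) and the hollow point of Kera. For Podn the 2 sources lie on opposite sides of 0.

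In the fibromodulin and lumican class, fibromodulin and lumican were lower in p27delta51 and PRELP and osteomodulin were higher. Fibromodulin (Fmod), which binds collagen and lysyl oxidase and steers fibril growth in tendon, was read by 6 probe sets, all lower in p27delta51. The brightest gave 169.5 in p27delta51, against 308 in wild type, 1.82-fold lower. The only 1 of the 6 whose name carries no suffix for possible cross-hybridisation gave 97.6 in p27delta51, against 233 in wild type, 2.39-fold lower. The other 4 were between 1.54-fold and 1.76-fold lower. The SD between the 6 log2 differences was 0.23, which is a spread of probe sets on the same arrays and not of samples. Of the 6, 5 carried a decrease call in the authors' deposited table.

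Lumican (Lum), needed for the regular fibril spacing that makes the cornea clear, gave 14.8 in p27delta51, against 107 in wild type. The p27delta51 signal equals the floor, so Lum was at least 7.25-fold lower. Its log2 ratio in the authors' deposited table was -2.1, with a decrease call. Lum was read by 1 probe set. Keratocan (Kera), the cornea-enriched neighbour of lumican, gave 5.9 in p27delta51, against 0.4 in wild type, and no fold is given because each signal lies under its floor.

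PRELP (Prelp), which can bind collagen and the basement membrane proteoglycan perlecan, gave 101 in p27delta51, against 58.5 in wild type, on its brighter probe set, 1.73-fold higher. Its dimmer probe set gave 93.0 in p27delta51, against 44.8 in wild type, 2.08-fold higher. The authors' deposited table called the first unchanged, at a log2 ratio of 0.4, and the second increased, at 0.8. Osteomodulin (Omd), a keratan sulfate proteoglycan of bone matrix, gave 173 in p27delta51, against 112 in wild type, 1.55-fold higher, with an increase call in the authors' deposited table. Neither Omd nor the brighter Prelp probe set reached 2-fold. By brightest probe set the class held 1 gene past 2-fold, Lum, and for Fmod and Prelp this depended on the probe set.

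Osteoglycin (Ogn), also called mimecan, is a SLRP of bone, muscle and vessel walls with short chains or none. Its 2 probe sets gave 5667 and 5171 in p27delta51, against 3753 and 3358 in wild type. They were 1.51-fold and 1.54-fold higher in p27delta51, with an SD of 0.02 between the log2 differences of the probe sets. Podocan (Podn), a distant member first described in the kidney, gave 83.3 in p27delta51, against 52.1 in wild type, 1.60-fold higher. The authors' deposited table gave the same Podn probe set a log2 ratio of -0.5 and a call of no change, so its direction is not settled. Podn was the only 1 of the 21 probe sets whose sign differed between the deposited signals and that table.

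By the authors' own calls, 9 of the 21 SLRP probe sets were increased, where 12.9% of all 45101 probe sets on the array were. These belonged to 5 genes, Aspn, Bgn, Ogn, Omd and Prelp. Decrease calls were given to 7 SLRP probe sets, where 10.3% of all probe sets had them, and these belonged to Dcn, Fmod and Lum. Probe sets of a gene share their target, and the background takes in many probe sets below the floor, so these shares are not compared further.

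The differences are also given by chromosomal neighbourhood, with neighbours chosen after the values were seen. For scale, 55.6% of all kept genes had a positive log2 difference and 44.3% a negative one. On chromosome 13 the genes lie in the order Ecm2, Aspn, Omd, Ogn, and all had higher signals in p27delta51, with Omd and Ogn just above the upper quartile of all kept genes. Ecm2, a SLRP relative with matrix-binding domains, gave 17.6 in p27delta51, against 4.7 in wild type, below the brightness limit and at least 1.49-fold higher. The authors' deposited table called that probe set unchanged, at a log2 ratio of 1.3, and a dimmer Ecm2 probe set increased, at 5.3. In the gene table these 4 genes lie on the plus strand within the span of Cenpp, a kinetochore gene on the minus strand. Cenpp gave 343 in p27delta51, against 77.2 in wild type, 4.45-fold higher. Ippk, which overlaps the edge of Cenpp in the gene table, was 1.47-fold higher in p27delta51, and Nol8, the next gene beyond Cenpp, was 1.40-fold lower. The 415 kept genes of chromosome 13 had a median log2 difference of 0.17.

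The upstream sequences of Aspn, Omd and Ogn are shown because these neighbours were all higher in p27delta51, by very different amounts. They are the 250 bases before the RefSeq start of each gene (GRCm38.p6), written 5′ to 3′ along the gene. Capitals mark matches on either strand to TATAAA (as in many core promoters), CCAAT (the letters bound by NF-Y), TGANTCA or GGAATG (bound by TEAD proteins). TGANTCA allows any base at N, so it takes in the letters bound by AP-1 proteins and other runs as well.
Aspn, chr13:49544193-49544442, + strand: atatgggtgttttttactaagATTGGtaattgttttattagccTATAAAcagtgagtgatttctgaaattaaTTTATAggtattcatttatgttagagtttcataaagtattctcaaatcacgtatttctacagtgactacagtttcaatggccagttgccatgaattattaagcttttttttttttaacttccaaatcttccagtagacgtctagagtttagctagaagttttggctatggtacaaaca
Omd, chr13:49582212-49582461, + strand: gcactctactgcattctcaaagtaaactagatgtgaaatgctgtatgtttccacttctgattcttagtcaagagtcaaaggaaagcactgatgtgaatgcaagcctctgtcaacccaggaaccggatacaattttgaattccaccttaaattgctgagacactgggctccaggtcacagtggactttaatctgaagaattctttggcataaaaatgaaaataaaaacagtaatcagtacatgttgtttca
Ogn, chr13:49607765-49608014, + strand: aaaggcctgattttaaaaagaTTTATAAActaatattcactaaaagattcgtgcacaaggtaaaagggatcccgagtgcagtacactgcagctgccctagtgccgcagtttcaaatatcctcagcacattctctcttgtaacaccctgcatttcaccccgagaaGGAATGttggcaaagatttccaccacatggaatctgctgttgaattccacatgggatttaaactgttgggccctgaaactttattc

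The Aspn window held TATAAA from 207 to 202 bases upstream of the start and again, on the opposite strand, from 178 to 173. It also held CCAAT on the opposite strand from 229 to 225. The Ogn window held 2 overlapping TATAAA matches, from 229 to 224 on the opposite strand and from 227 to 222 on the gene's strand, and GGAATG from 86 to 81. The Omd window held none of the 4 motifs, and TGANTCA was in none of the 3 windows. Of 32851 windows of this length in the RefSeq promoter table, 12.4% held TATAAA, 33.8% CCAAT, 6.75% TGANTCA and 12.6% GGAATG. The share of G and C was 30.0% for Aspn, 38.4% for Omd and 42.0% for Ogn, against a median of 52.4% over the table. The TATAAA matches lay far upstream of the start, so they are not read as core promoter elements. A match is only a run of letters and shows no binding.

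On chromosome 10 the order is Dcn, Lum, Kera, Epyc, and the 3 genes with a signal above a floor were lower in p27delta51. Epyc, which encodes epiphycan, a cartilage SLRP, gave 2.5 in p27delta51, against 30.5 in wild type, at least 2.06-fold lower, although it was below the brightness limit. The nearest genes above the floor beyond the cluster differed less than Dcn or Lum. Btg1 was 1.46-fold higher and Atp2b1 1.31-fold lower in p27delta51. On chromosome 1 the neighbours lay on each side of 0. Optc, which encodes opticin, gave 28.9 in p27delta51, against 14.1 in wild type, 2.05-fold higher but below the brightness limit, and Prelp was also higher, whereas Fmod was lower. Btg2, next to Fmod, was 2.31-fold lower.

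**Figure D3:**
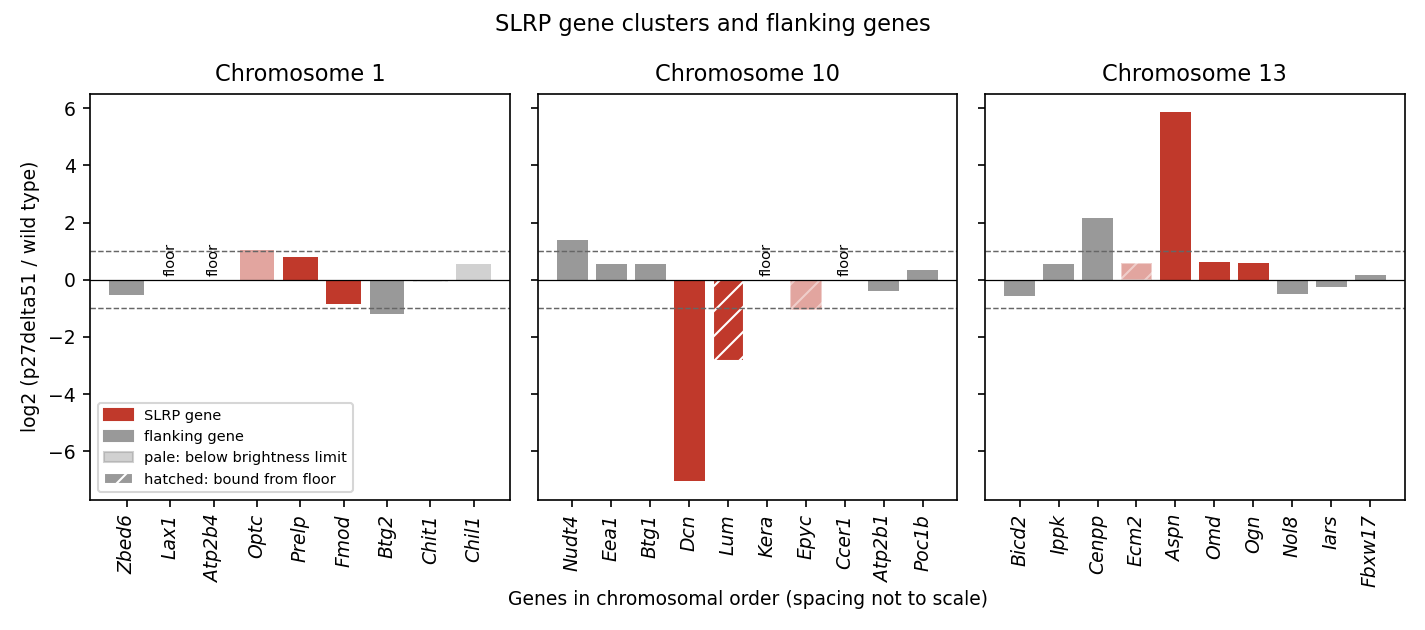
Log2 of p27delta51 over wild type for SLRP genes (red) and the 3 nearest measured protein-coding genes on each side (grey), in chromosomal order, with 2-fold dashed. Pale bars lie below the brightness limit, hatched bars are bounds against the control floor, and "floor" marks genes at or below the floor on each array; the chromosome 10 cluster points down and the chromosome 13 cluster points up.

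Beyond the members and Ecm2, Epyc and Optc, 3 other SLRP relatives were measured. Chadl, a chondroadherin-like gene, was kept, at 48.1 in p27delta51, against 63.3 in wild type. Chad was at the floor on each array, and Nyx, the nyctalopin gene of the retina, gave 16.8 in p27delta51, against 10.3 in wild type.

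This and the later gene lists were chosen with earlier results of these data known, so their counts describe the listed genes only. Of all kept genes, 10.8% were higher and 8.77% lower by 2-fold or more in p27delta51, the shares to set beside each count. The enzymes that build the sugar chains showed members on each side. For chondroitin and dermatan sulfate, 19 of 23 listed genes were kept, of which 2 were higher by 2-fold or more, 3 lower by 2-fold or more and 14 between, with a median of -0.023. Chst15 and Chst11, sulfotransferases that act on chondroitin, were 4.28-fold and 3.12-fold lower in p27delta51. Chpf2, a chondroitin polymerising factor, gave 196 in p27delta51, against 504 in wild type. Pxylp1, a phosphatase acting on the xylose of the linker, and Csgalnact1, which starts chondroitin chains, were 3.30-fold and 2.35-fold higher, and Chst7 was 1.83-fold higher.

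For keratan sulfate, 8 of 11 listed genes were kept. Of these, 4 were higher and 1 lower by 2-fold or more, against 10.8% and 8.77% of all kept genes. The median was 0.82, which averaging all probe sets of a gene brought to 0.28. Chst1, the sulfotransferase that acts on the galactose of keratan sulfate, gave 297 in p27delta51, against 28.5 in wild type, 10.4-fold higher. St3gal1, a sialyltransferase, and B4galt1, a galactosyltransferase, were 2.45-fold and 2.28-fold higher. B4galt4, a galactosyltransferase used in keratan sulfate synthesis, gave 26.9 in p27delta51, against 79.0 in wild type, and St3gal3 was 1.69-fold lower. Among the listed genes not kept, B3gnt7 and Chst4 were at or below the floor on each array.

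Fibrillar collagens and the proteins that assemble them had 26 kept genes of 31 listed, with a median of -0.14. In p27delta51, 6 were higher and 5 lower by 2-fold or more, against 10.8% and 8.77% of all kept genes. Pcolce2, an enhancer of procollagen processing, was at least 15.6-fold higher in p27delta51. The matricellular gene Thbs2 and Col6a2, a chain of the type VI collagen that biglycan and decorin bind, were 5.82-fold and 5.24-fold higher. Col2a1, Col11a1 and Col14a1 were 37.4-fold, 6.41-fold and 5.97-fold lower. Type XIV collagen is itself found on fibrils that carry decorin, and its signal was 17.6 in p27delta51, against 105 in wild type.

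Listed ligands reported to bind SLRPs, growth factors and other secreted proteins, were mostly lower in p27delta51. Of 10 kept genes of 14 listed, 8 were lower by 2-fold or more, where 8.77% of all kept genes were. The other 2 were higher by 2-fold or more, where 10.8% of all kept genes were. The median was -1.81, against 0.079 for all kept genes. As the list was chosen with earlier results of these data known, these counts describe the listed genes only. Pdgfb gave 32 in p27delta51, against 473 in wild type, and Igf1 and Ccn4, which encodes a matricellular protein, were 7.95-fold and 7.82-fold lower. Bmp2 was at least 26.5-fold higher and Tgfb1 2.46-fold higher. Tgfb2 and Tgfb3, named after their values were seen, were 2.17-fold and 4.08-fold lower, opposite to Tgfb1.

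Receptors reported to bind SLRPs had 8 kept genes of 12 listed, with a median of -0.44. Of these, 3 were higher and 1 lower by 2-fold or more, against 10.8% and 8.77% of all kept genes. The pattern-recognition genes Cd14 and Tlr4 were 2.70-fold and 2.33-fold higher in p27delta51, and the endocytic receptor gene Lrp1, whose product takes up decorin, was 2.22-fold higher. Egfr gave 171 in p27delta51, against 478 in wild type, and Itgb1 and Met were 1.99-fold and 1.75-fold lower.

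Proteases reported to cleave SLRPs had 10 kept genes of 15 listed. Of these, 2 were higher and 4 lower by 2-fold or more, against 10.8% and 8.77% of all kept genes. Their median was -0.52, which averaging all probe sets of a gene turned to 0.20. The matrix metalloproteinase genes Mmp13 and Mmp3 were higher in p27delta51, by at least 33.5-fold for Mmp13 and by 14.1-fold for Mmp3. Mmp14 was 1.21-fold higher. Htra1, Adamts1 and Tll1, a tolloid-family protease gene, were 7.65-fold, 7.12-fold and 2.57-fold lower.

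**Figure D4:**
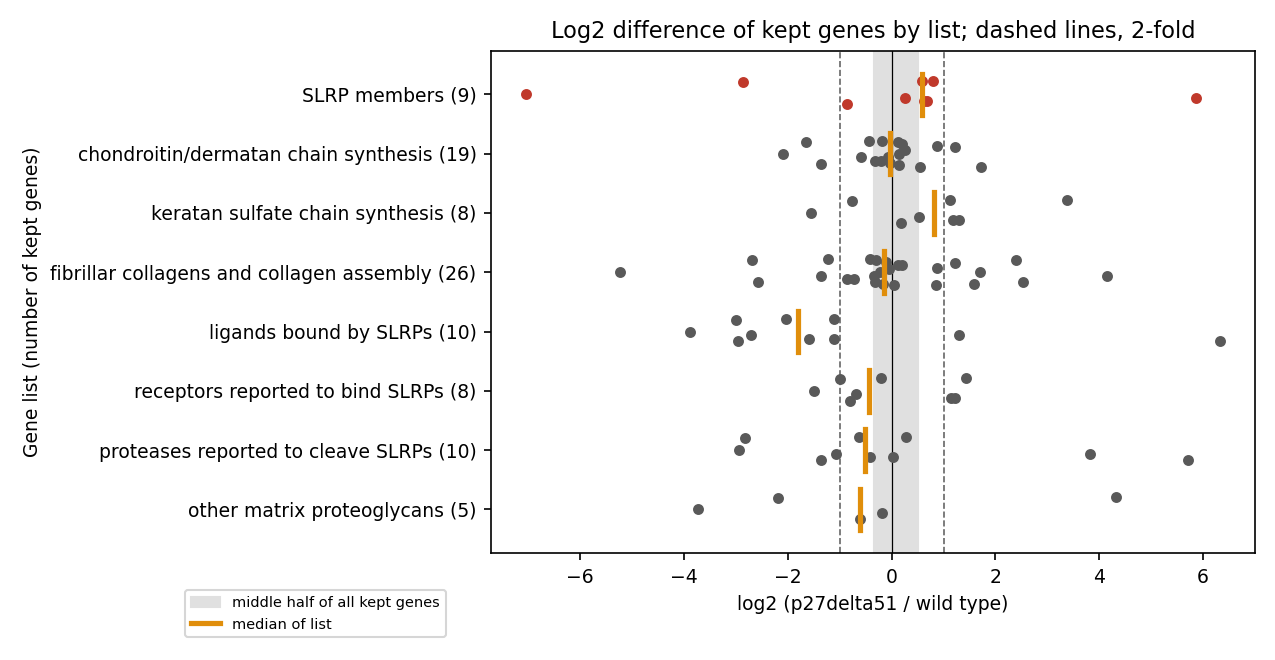
Log2 of p27delta51 over wild type (deposited signals) for the kept genes of each list, a point per gene, with the list median as an orange bar, the quartile range of all kept genes in grey and 2-fold dashed; the number of kept genes stands in parentheses, and signals at or below the floor enter as deposited. The list of ligands bound by SLRPs lies mostly under -1, while the SLRP genes spread from -7.05 to 5.87.

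Markers of skeletal cell types that express SLRPs also differed between the arrays. Of 12 chondrocyte markers, 7 were kept, 4 of them lower by 2-fold or more and none higher by 2-fold or more in p27delta51. Among all kept genes, 8.77% were lower and 10.8% higher by 2-fold or more. The summed signal of all 12 was 262 in p27delta51, against 4575 in wild type. Cnmd, which encodes chondromodulin, was at least 180-fold lower, Col2a1 was 37.4-fold lower and Acan 13.2-fold lower, the same direction as Dcn, Lum and Epyc. Of the 12 markers, 6 were above the floor in p27delta51, against 9 in wild type; Matn1, Hapln1 and Ucma were at or below the floor on each array and Comp was 1.82-fold higher. Of 8 osteoblast markers, 5 were measured, with 3 above the floor in p27delta51 and 3, not all the same genes, in wild type. The 3 kept were Dmp1, Phex and Sp7, and the summed signal of the 5 was 382 in p27delta51, against 79.5 in wild type. Dmp1 gave 207 in p27delta51 and was listed at 0 in wild type, and Phex was at least 10.4-fold higher, the same direction as Aspn, whereas Sp7 gave 32.3 in p27delta51, against 32.6 in wild type. Both unkept markers, Alpl and Ibsp, did not share that direction. Alpl, the alkaline phosphatase gene, gave 6.8 in p27delta51, against 25.2 in wild type, lower by at least 1.70-fold. Ibsp gave 12.4 in p27delta51, against 13.2 in wild type. Without Dmp1 the summed signal was 175 in p27delta51, against 79.5 in wild type.

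Of 5 tenocyte markers, 4 were kept, and the summed signal of all 5 was 1225 in p27delta51, against 1970 in wild type. Egr1, an immediate-early gene of many cell types, set the direction of that sum, and the other 4 summed to 472 in p27delta51, against 195 in wild type. Mkx and Scx, transcription factor genes of tendon, were 3.22-fold and 2.37-fold higher in p27delta51. Egr1 was 2.36-fold lower and Tnmd 1.66-fold lower, and Thbs4 was at or below the floor on each array. The part of any of these cell types in the SLRP differences was not tested.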

How the data were processed

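Total RNA of p27delta51 and wild type MEFs, 1 array each, was biotin-labelled and run on Affymetrix arrays, per the labels' protocols. The deposited value table holds a linear signal intensity per probe set. Per the submitters' processing notes RMA and affy were used, but RMA gives log2 values, and the deposited intensities have a trimmed mean of 150.0 on each array (2% cut at each end). The sources used here do not give the program behind them. Since the design allowed for log2 values, log2 was taken, with 0.1 standing in for a signal of 0. A second deposited table holds, per the file headers, the authors' log2 signal ratio, a call of change and its p-value for the 2 arrays. That p-value, as deposited, compares arrays and not genotypes.

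Names of probe sets came from the platform annotation, updated by gene identifier. Of 45101 probe sets, 34945 carried 1 gene symbol, 932 several, 64 were controls and 9160 were unnamed here. The number of unused sample columns was 0. Each gene was read from its brightest probe set by mean signal. Where 1 array lay at or below its floor, folds are against the floor ("at least"). Fold changes of at least 2-fold were counted without a test. Every SLRP gene is named; of other lists, up to 3 kept genes with the largest difference in each direction, and cluster neighbours. Also named, outside this rule and after their values were seen, are markers and SLRP relatives below the brightness limit, B3gnt7, Chst4, Tgfb2 and Tgfb3. Sums over marker lists were also taken without the gene whose signals differed most. The members and lists were chosen with earlier results of these data known, and the neighbours and motifs after the values were seen. Alternatives changed the scaling, probe set rule, floor, pseudocount, filter, threshold and source of the ratio. Steps were tested on simulated data. Python 3.11.15, pandas 2.3.3 and statsmodels 0.14.6 were used. The number of arrays limits the precision.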

Additional observations from a re-analysis of the deposited data

How the results depend on the processing

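Aspn stayed at least 2-fold higher and Dcn at least 2-fold lower in p27delta51 under every alternative run, and Lum likewise lower except under the upper-quartile filter, which removed it. No paired analysis was possible because each genotype had 1 array. With no filter the count of SLRP genes at least 2-fold higher was 2, through Kera, whose signals lie under the floors. Without probe sets whose names end in _a_at, _s_at or _x_at, an alternative chosen after seeing the data, it was 2, through Prelp, and Fmod joined the lower genes, as it also did with the authors' log2 ratio. A 1.5-fold threshold gave 5 higher genes, and the upper-quartile filter gave 1 lower gene. The SLRP median was 0.30 with the authors' log2 ratio and 0.27 with the upper-quartile filter. The keratan sulfate median was 0.28 with the mean of all probe sets, 0.17 with no filter and 1.13 without the suffixed probe sets. With no filter the median of the ligands was -1.36, that of other matrix proteoglycans 0.48 and that of other SLRP relatives 0.39. That setting also turned the osteoblast and adipocyte medians to -0.013 and -0.78. Other SLRP relatives, 1 kept gene, gave -0.10 with the authors' ratio. The protease median was 0.20 with the mean of all probe sets. With the upper-quartile filter the medians were -1.40 for other matrix proteoglycans and -0.74 for receptors. The cause of these shifts was not tested beyond the genes each setting adds or removes. Values of single SLRP genes were held to 0.23, the median SD between probe sets of a gene on the log2 scale, and 66 of 80 alternative values moved by less. Over all kept genes, 1200 were at least 2-fold higher and 979 lower. These counts were 2805 and 2581 with no filter, 559 and 461 with the upper-quartile filter, 752 and 692 with 32 added to each signal, 2421 and 1773 at 1.5-fold, and 533 and 581 at 3-fold. The brightness of a probe set over the control floor limits the values of Lum and Kera, which reach the floor.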

Other observations

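Matrix proteoglycans outside the SLRP family had 5 kept genes of 12, with a median log2 difference of -0.62. In p27delta51, 1 was higher and 2 lower by 2-fold or more, against 10.8% and 8.77% of all kept genes. Prg4, which encodes the joint lubricant lubricin, gave 164 in p27delta51, against 8.2 in wild type, at least 13.9-fold higher. Acan, the large aggregating proteoglycan of cartilage, was 13.2-fold lower, Agrn, the agrin gene, 4.57-fold lower, and Hspg2, the perlecan gene, 1.53-fold lower.

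Marker lists of further cell types gave these summed signals, several of which turned on a single gene. Smooth muscle and pericyte markers gave 6897 in p27delta51, against 15458 in wild type. Of their 6 kept genes, 3 were lower and 1 higher by 2-fold or more, against 8.77% and 10.8% of all kept genes. Keratocyte markers gave 246 in p27delta51, against 232 in wild type, with Angptl7 at least 12.5-fold higher and Aldh1a1 at least 12.3-fold lower. Without Aldh1a1 they gave 244 in p27delta51, against 50.5 in wild type. Adipocyte markers gave 252 in p27delta51, against 145 in wild type, but 93.5 in p27delta51, against 105 in wild type, without Cebpa. Fabp4 was 2.53-fold higher and Pparg, a main regulator of fat cells, at least 3.30-fold lower. That Pparg probe set had a log2 ratio of -4.2 but a call of no change in the authors' deposited table. Epithelial markers gave 142 in p27delta51, against 290 in wild type, but 128 in p27delta51, against 113 in wild type, without Krt19, which was at least 12.0-fold lower. By the deposited signals Epcam was 2.30-fold higher. Its log2 ratio in the authors' deposited table was 0.1, with a call of no change, so no direction is drawn. Endothelial markers gave 49.8 in p27delta51, against 92.3 in wild type, with 0 of 7 kept. Macrophage markers gave 212 in p27delta51, against 169 in wild type, but 125 in p27delta51, against 137 in wild type, without Cd14. The median of the 3 kept macrophage markers was -0.20, with Csf1r 1.15-fold and Lyz2 1.54-fold lower. Neural markers gave 226 in p27delta51, against 1748 in wild type, with Map2 24.3-fold lower and Sox10 at 30.1 on each array. Without Map2 they gave 169 in p27delta51, against 369.8 in wild type.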
